A study of Homo sapiens with 8 samples.

Results

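The 10 genes described here encode the core of the RB1 pathway: the pocket proteins RB1, RBL1 and RBL2, the D cyclins CCND1, CCND2 and CCND3, their kinases CDK4 and CDK6, and the INK4 inhibitors CDKN2A and CDKN2B. They were found by gene symbol among the 58202 Ensembl identifiers listed for each line, and all 10 were present. They were chosen with their levels in these lines known, and the rule sets the CDKN2A level of each line beside its RB1 level, so that relation is a description without a test. RBL1 was carried by 2 identifiers. The one used, ENSG00000080839, had the higher mean, and the other, ENSG00000269846, is an antisense gene in GENCODE v29 and lay between 0.0329 and 0.383 FPKM.

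D cyclins bind CDK4 or CDK6, and the complexes phosphorylate the pocket proteins, which then release E2F transcription factors and permit entry into S phase. INK4 proteins bind CDK4 and CDK6 and block this step. RB1 and CDKN2A are tumour suppressors, and tumours that lose one often retain the other. CDKN2A also encodes ARF, another tumour suppressor protein, read from another first exon.

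RNA sequencing was made of 8 human cancer cell lines with 1 library each, all cultured for 48 hours before extraction and none treated. The series set out to compare lines that respond to ibrutinib, a BTK inhibitor, with lines that do not, but the labels do not place the lines, so response was not compared here. Lines were grouped by labelled tissue. The 3 lung lines were H522 (non-small cell cancer), H661 (large cell cancer) and H146 (small cell cancer), the 2 endometrial lines were KLE (adenocarcinoma) and HEC59 (carcinoma), and single lines were COV318 (ovarian serous carcinoma), H716 (colorectal adenocarcinoma of the cecum) and 1321N1 (glial, from an astrocytoma). Each line is a different tumour, grown as an established line, and the labels give no repeat cultures.

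Values are FPKM, fragments divided by the length of a transcript and the mapped total, so levels of different genes can be compared per length. FPKM holds no counts, the depth of the libraries is unknown, and no counting error can be given. Between 12205 and 13300 genes per line reached 1 FPKM. Steps in low values divided the lines into a set of H522, H661, KLE and H716 and a set of H146, HEC59, COV318 and 1321N1. In the sample order of the series, every line of the first set came before every line of the second. What made the sets differ was not tested. Tissue markers were uneven: lung markers were below 1 FPKM in H522 and H146, H661 had NKX2-1 alone at 11.2 FPKM, and 1321N1 had 1 of 5 glial markers at 1 FPKM (GFAP, 3.10) but 5 of 5 fibroblast markers. H146 had 4 of 5 neuroendocrine markers, KLE, HEC59 and COV318 had 5, 4 and 4 of 5 Mullerian markers, and H716 had 4 of 5 intestinal markers. The intestinal markers of H716 were CDH17 at 137 FPKM, LGR5 at 5.79, CDX2 at 1.31 and VIL1 at 1.07. LGR5 was higher in HEC59 (130) and COV318 (16.0), and VIL1 in H146 (8.74).

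**Figure D1:**
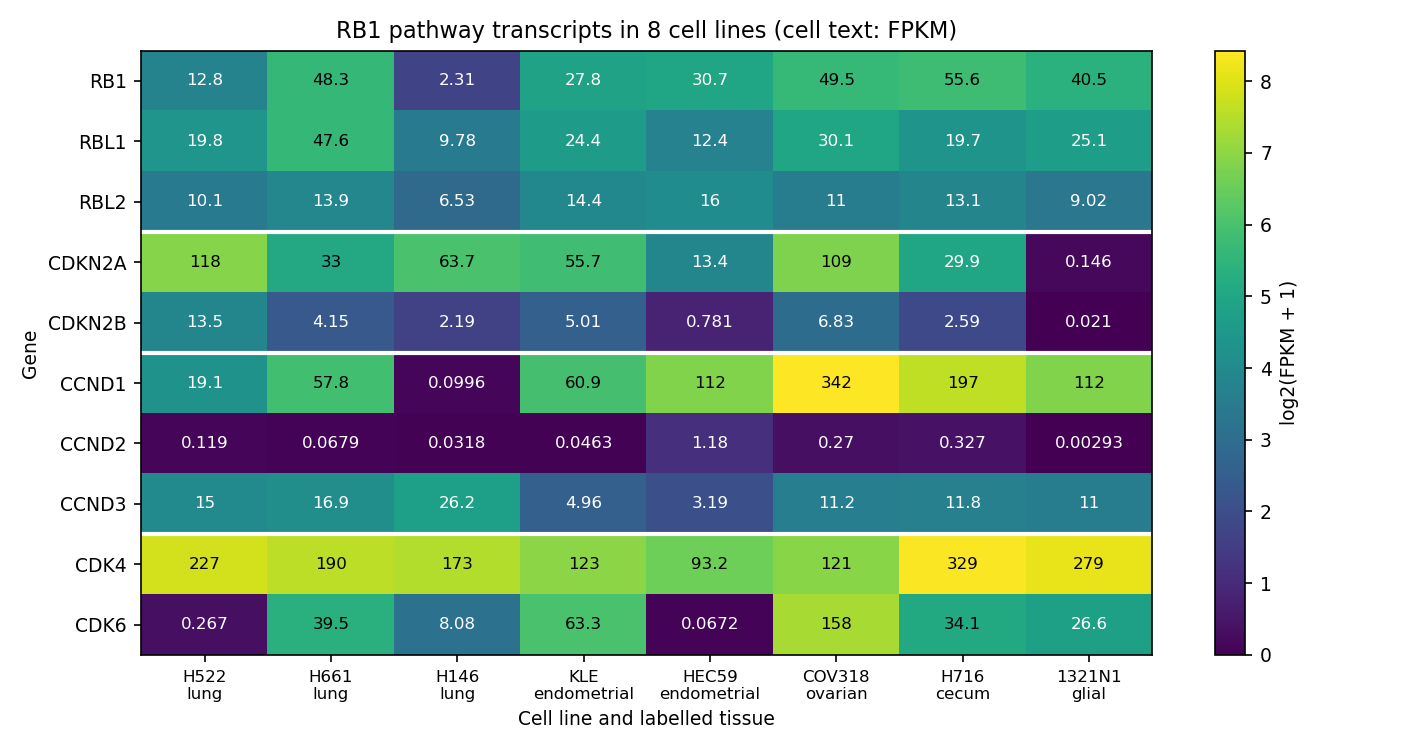
FPKM of the 10 genes (rows, by role) in the 8 lines (columns, with tissue), coloured by log2(FPKM + 1) and with the FPKM written in each cell. The darkest cells, at most 2.31 FPKM, include RB1 and CCND1 in H146 and CDKN2A in 1321N1. The others are CDKN2B in 1321N1, HEC59 and H146, CDK6 in H522 and HEC59, and CCND2 in every line.

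RB1 (ENSG00000139687) was low in H146 and moderate to high elsewhere. It was at 48.3 FPKM in H661, 12.8 in H522, 2.31 in H146, 27.8 in KLE, 30.7 in HEC59, 49.5 in COV318, 55.6 in H716 and 40.5 in 1321N1. H146 lay 5.52-fold under the next line, H522, and the highest line exceeded it 24.1-fold. H661, COV318 and H716 stood close together at the top, and with 1 library per line there is no spread within a line against which to order them. In bulk RNA, fewer cells with a transcript and less transcript per cell cannot be told apart.

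The related pocket protein genes varied less. RBL1, which encodes p107 and is itself an E2F target, was at 47.6 FPKM in H661, 19.8 in H522, 9.78 in H146, 24.4 in KLE, 12.4 in HEC59, 30.1 in COV318, 19.7 in H716 and 25.1 in 1321N1. RBL2 (ENSG00000103479), which encodes p130, the pocket protein of resting cells, spanned 6.53 in H146 to 16.0 in HEC59. All 3 pocket genes were thus lowest in H146, RBL1 and RBL2 by small gaps of 1.27-fold and 1.38-fold to the next line. RB1 made up 12.4% of the summed pocket FPKM in H146 and 29.9% in H522, and 41.7% to 62.8% in the other 6 lines. The SD of log2(FPKM + 1) over the lines was 1.38 for RB1, 0.68 for RBL1 and 0.39 for RBL2, at percentiles 87.1, 51.6 and 10.7 among genes past the filter described below.

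Among all genes, H146 was the lowest line by a gap of at least 1 on the log2(FPKM + 1) scale for 412 of 15650 genes, or 2.63%, counting genes that reached 1 FPKM in 2 lines or more. RB1 and CCND1 were among them, 2 of the 9 members past this filter. The size of the gap was chosen after the values were seen. H146 also had 4 of 5 neuroendocrine markers at 1 FPKM or more, with INSM1 at 81.3 FPKM in H146 and at most 5.27 in the other 7 lines. H716, the line with the most RB1, had 3 of 5, with CHGA at 15.4 and SYP at 6.67, against 7.59 and 6.00 in H146. The part of these markers in the RB1 level was not tested.

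Genes beside RB1 on chromosome 13 stood much nearer to their usual level in H146 than RB1 did, although some, such as FNDC3A and KPNA3, were lowest there. Of the protein-coding neighbours in RefSeq order (assembly GRCh38.p14, used for order alone), 16 had a median FPKM of 1 or more in the other lines. Their ratio of H146 to the median of the other 7 lines ran from 0.365 to 1.70, with a median of 0.873, against 0.0571 for RB1. Among the closest were ITM2B, a membrane protein gene (42.4 FPKM in H146, 14.8 to 293 in the others), MED4, a Mediator subunit (17.1, against 8.22 to 24.8) and SUCLA2, a subunit of mitochondrial succinate-CoA ligase (26.4, against 14.6 to 65.7). RCBTB2 was at 3.35 in H146 and 1.02 to 5.24 elsewhere, and FNDC3A at 14.02, just below the 14.76 of H522. LPAR6, a receptor gene that lies within RB1 on the opposite strand, did not exceed 3.86 in any line, and CYSLTR2 did not exceed 0.0328. The sources used here do not say whether reads were assigned by strand, so reads of RB1 and of genes on its other strand may be mixed.

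CDKN2A (ENSG00000147889) showed another pattern. It was at 33.0 FPKM in H661, 118 in H522, 63.7 in H146, 55.7 in KLE, 13.4 in HEC59, 109 in COV318, 29.9 in H716 and 0.146 in 1321N1. The other 7 lines had at least 13.4, so 1321N1 lay 92.2-fold under its nearest line. CDKN2B (ENSG00000147883), which encodes p15 and lies beside CDKN2A, was lower throughout, at 4.15 in H661, 13.5 in H522, 2.19 in H146, 5.01 in KLE, 0.781 in HEC59, 6.83 in COV318, 2.59 in H716 and 0.0210 in 1321N1. Both genes were highest in H522, second in COV318, second lowest in HEC59 and lowest in 1321N1. Over the 8 lines their log2 levels correlated at r = 0.89 and rho = 0.86, and at r = 0.86 without 1321N1.

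FPKM per gene cannot separate p16 from ARF, since both are read from CDKN2A. The RefSeq promoter windows of CDKN2A and CDKN2B (GRCh38.p14, minus strand, 250 bases before to 50 after a start) are shown because these 2 genes had like profiles and because CDKN2A has more than 1 start. Capitals mark the letters GGGCGG on either strand, a GC box, which 44.9% of the 34943 windows of this length hold. The first CDKN2A window, at chr9:21974808-21975107, runs into the p16 coding sequence, the second, at chr9:21995275-21995574, is that of the upstream start, and the CDKN2B window is at chr9:22009256-22009555.
CDKN2A, p16 start: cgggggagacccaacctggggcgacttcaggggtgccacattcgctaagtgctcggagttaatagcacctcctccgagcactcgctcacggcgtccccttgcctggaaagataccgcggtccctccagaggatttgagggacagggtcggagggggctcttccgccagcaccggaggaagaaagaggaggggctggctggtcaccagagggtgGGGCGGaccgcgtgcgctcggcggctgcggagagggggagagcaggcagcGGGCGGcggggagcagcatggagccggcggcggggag
CDKN2A, upstream start: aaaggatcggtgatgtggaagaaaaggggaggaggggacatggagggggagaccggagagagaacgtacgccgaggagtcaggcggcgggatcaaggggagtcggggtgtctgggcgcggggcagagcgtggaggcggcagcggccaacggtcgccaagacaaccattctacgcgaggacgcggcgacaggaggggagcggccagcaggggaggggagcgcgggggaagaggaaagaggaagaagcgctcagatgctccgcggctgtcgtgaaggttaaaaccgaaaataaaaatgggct
CDKN2B: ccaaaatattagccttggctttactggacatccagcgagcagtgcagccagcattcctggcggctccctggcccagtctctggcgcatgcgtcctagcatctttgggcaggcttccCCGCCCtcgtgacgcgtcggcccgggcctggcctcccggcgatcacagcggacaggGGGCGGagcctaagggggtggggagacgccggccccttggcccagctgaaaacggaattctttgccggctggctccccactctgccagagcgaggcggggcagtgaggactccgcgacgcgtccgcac
They hold 26, 28 and 25 CpG dinucleotides against a median of 14 over all windows, and the upstream window of CDKN2A holds no GC box. A match is a description of these letters and not a bound site, and methylation was not measured here.

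Low CDKN2A in 1321N1 extended to its neighbours on chromosome 9. From MLLT3 to C9orf72, 36 protein-coding genes in RefSeq order that the tables list were each under 0.5 FPKM in 1321N1. Of these, 12 had a median of at least 1 FPKM in the other 7 lines, with medians of 1.94 to 55.7, and in 1321N1 they lay between 0 and 0.146. MTAP, the enzyme of methionine salvage next to CDKN2A, was at 0.0296 FPKM in 1321N1, against 48.9 in H522 and 6.26 to 12.4 in the other 6 lines. KLHL9, a ubiquitin ligase adaptor, was at 0.0270 in 1321N1 and 4.53 to 24.2 elsewhere, and FOCAD, a focal adhesion gene, at 0.0187. CAAP1 and PLAA, on the far side of CDKN2B, were at 0.0316 and 0.129 in 1321N1, against 6.05 to 14.4 and 15.6 to 47.1 in the other lines.

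Outside the run, neighbours expressed in the other lines were also expressed in 1321N1, apart from PLIN2. RPS6, a ribosomal protein gene before it, was at 1625 FPKM in 1321N1 and ACO1, an aconitase gene after it, at 22.4. ACER2, between RPS6 and MLLT3, was at 0.827 in 1321N1 and 0.992 in H716. The 16 expressed neighbours outside the run had ratios of 1321N1 to the median of the other lines of 0.0270 to 2.31, with a median of 1.30, and the lowest was that of PLIN2, at 0.0768 FPKM in 1321N1 but also at 0.0657 in H146. CDKN2B-AS1, the antisense RNA of this locus, was listed at 0 in 1321N1, at 0.0186 in HEC59 and between 0.831 and 2.55 in the 6 remaining lines. Of the remaining listed neighbours, DMRTA1 and ELAVL2 reached 1 FPKM in H146 (2.23 and 1.04), with DMRTA1 also at 1.02 in KLE, and IFNE did not exceed 0.165. The rule for the run was chosen after the values were seen, and DNA copy number was not measured here.

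**Figure D2:**
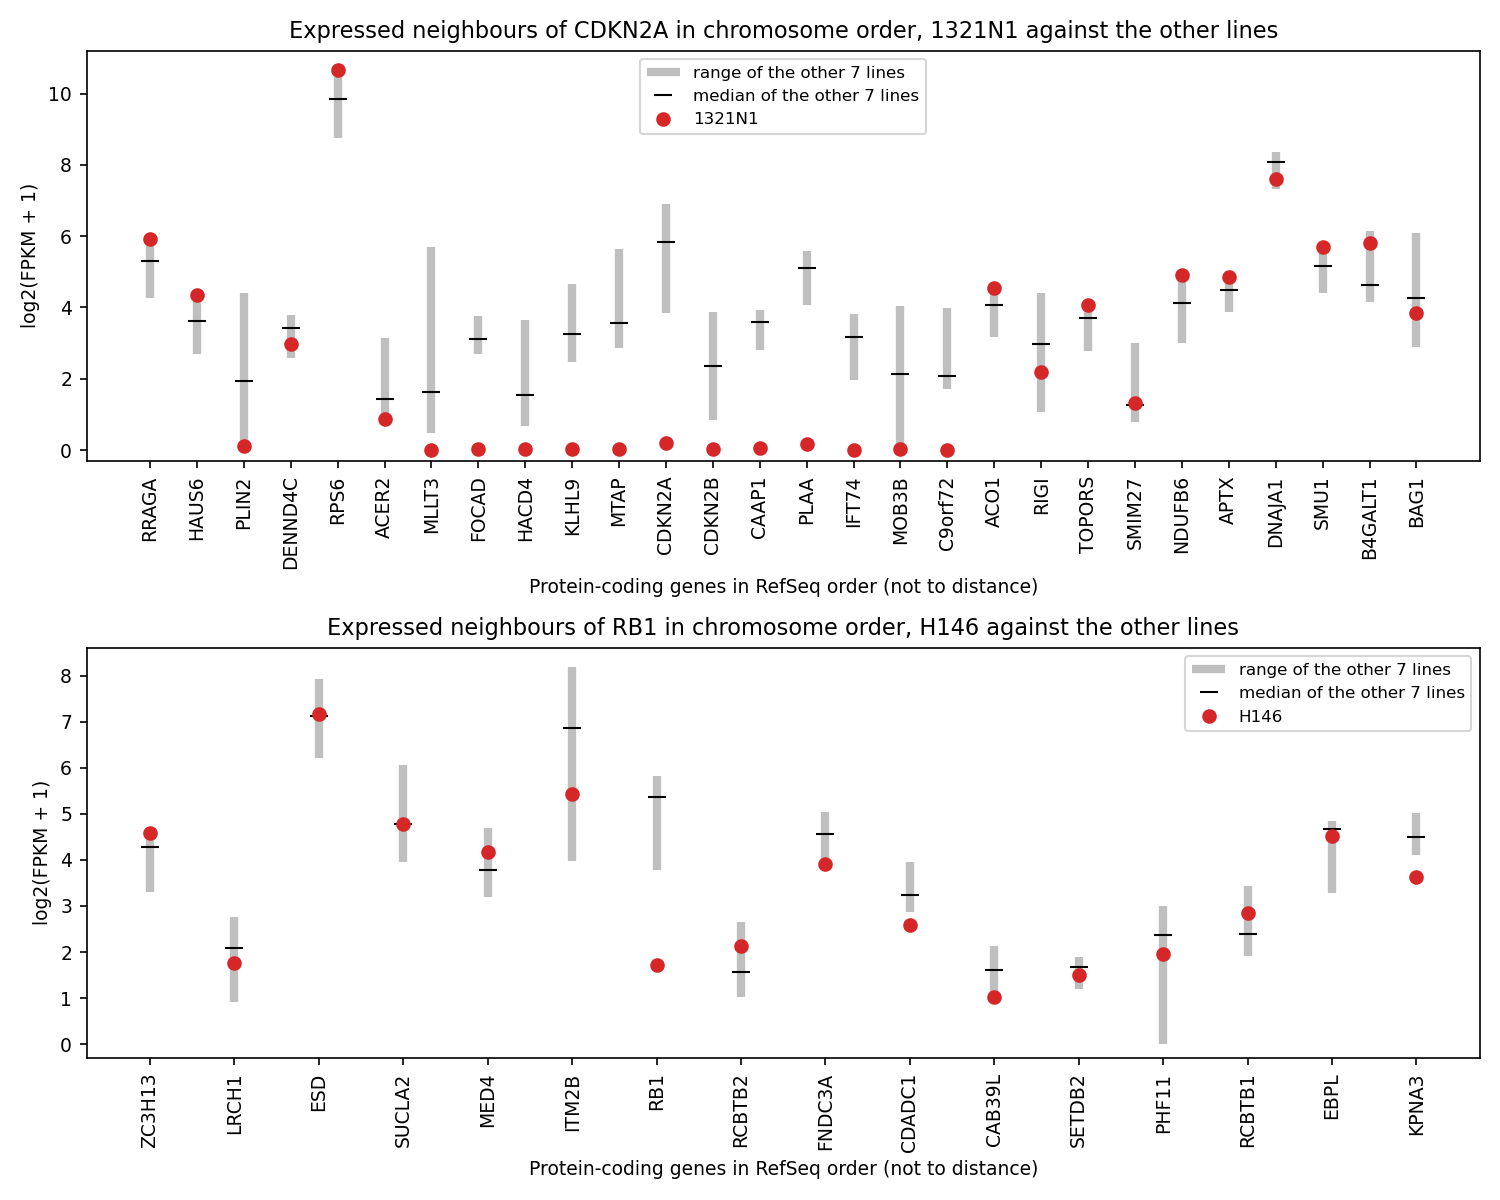
Level, as log2(FPKM + 1), of expressed protein-coding neighbours in chromosome order (not to distance) for CDKN2A with 1321N1 in red (top) and RB1 with H146 in red (bottom), with grey bars for the range and black ticks for the median of the other 7 lines. In 1321N1, 12 genes in a row lay at or near 0, while in H146 the neighbours of RB1 had ratios of 0.365 to 1.70 to the median.

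1321N1 was the lowest line by a gap of at least 1 (log2) for 109 of 15650 genes, or 0.696%, and CDKN2A was the single member among them. CDKN2B missed it with a gap of 0.80. By the gap to the nearest line divided by the range over the 8 lines, 1321N1 stood apart for CDKN2A (0.546, critical value 0.526) and HEC59 for CCND2 (0.639), and 8.12% of all genes past the filter, which CCND2 did not pass, had such a line.

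Set side by side, the lines with the least RB1 had much CDKN2A. H146 paired 2.31 FPKM of RB1 with 63.7 of CDKN2A, and H522 paired 12.8 with 118. The lines with the most RB1 did not have the least CDKN2A: H716 paired 55.6 with 29.9, COV318 49.5 with 109 and H661 48.3 with 33.0. The lowest CDKN2A levels fell to lines in the middle of the RB1 order, 1321N1 (40.5 with 0.146) and HEC59 (30.7 with 13.4). Over 8 lines r was -0.31 and rho -0.36, between -0.45 without COV318 and -0.23 without H522. With H522 and H146, farthest from the median RB1 level, left out, r was 0.12, so the inverse sign rested on those 2 lines. Within the read-step set of H522, KLE, H661 and H716 the order was strictly inverse, with RB1 at 12.8, 27.8, 48.3 and 55.6 and CDKN2A at 118, 55.7, 33.0 and 29.9. Within the other set it was not, since CDKN2A was at 63.7 in H146, 13.4 in HEC59, 0.146 in 1321N1 and 109 in COV318 in order of rising RB1. The sets were drawn from these same data and hold few lines, so neither order tests the relation.

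**Figure D3:**
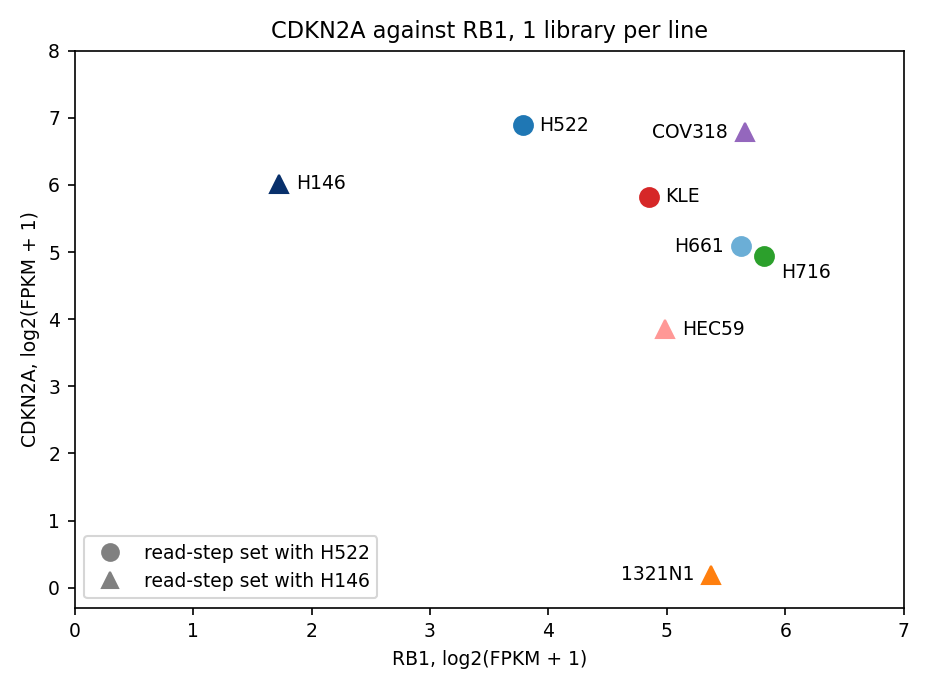
CDKN2A against RB1, both as log2(FPKM + 1), with 1 point per line, circles for the read-step set with H522 and triangles for the set with H146. H146 lies alone at the left with CDKN2A at 63.7 FPKM, 1321N1 alone at the bottom with RB1 at 40.5 FPKM, and COV318 has both high.

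D cyclins were dominated by CCND1 in most lines. CCND1 (ENSG00000110092), the cyclin of many epithelial tumours, was at 57.8 FPKM in H661, 19.1 in H522, 0.0996 in H146, 60.9 in KLE, 112 in HEC59, 342 in COV318, 197 in H716 and 112 in 1321N1. H146 was thus 192-fold under its nearest line. CCND3 (ENSG00000112576) had its highest level in the line without appreciable CCND1, at 16.9 in H661, 14.96 in H522, 26.2 in H146, 4.96 in KLE, 3.19 in HEC59, 11.2 in COV318, 11.8 in H716 and 11.0 in 1321N1. CCND2 (ENSG00000118971) was nearly absent: it reached 1.18 in HEC59 and at most 0.327 elsewhere, and so was the 1 member that did not pass the filter.

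As a share of summed D cyclin FPKM, CCND3 made up 99.5% in H146 and 43.8% in H522, and 2.73% to 22.6% in the other lines. The sum itself ran from 26.4 FPKM in H146 and 34.2 in H522 to 354 in COV318. Of the 45 pairs of members, RB1 and CCND1 had the highest correlation over the lines (r = 0.96, rho = 0.81, n = 8). It was 0.82 without H146 and 0.53 without H522 and H146. The lowest was that of RBL2 and CCND3 (r = -0.75, and -0.59 without H146), and CCND1 with CCND3 was at -0.56, or -0.16 without H146. Over all pairs 27 were positive and the median r was 0.06.

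CDK4 (ENSG00000135446) was abundant everywhere, at 190 FPKM in H661, 227 in H522, 173 in H146, 123 in KLE, 93.2 in HEC59, 121 in COV318, 329 in H716 and 279 in 1321N1. The highest line exceeded the lowest 3.53-fold. CDK6 (ENSG00000105810), its close relative, differed far more, at 39.5 in H661, 0.267 in H522, 8.08 in H146, 63.3 in KLE, 0.0672 in HEC59, 158 in COV318, 34.1 in H716 and 26.6 in 1321N1. H522 and HEC59 were therefore left with CDK4 alone, which was 99.9% of the CDK4 and CDK6 sum in both. COV318 was the only line with more CDK6 than CDK4, at 56.7% of the sum, followed by KLE at 33.9% and H661 at 17.2%. COV318 was the highest line by at least 1 (log2) for 192 of 15650 genes, or 1.23%, with CDK6 the single member among them. The lines of a labelled tissue did not share a CDK6 level: it was high in KLE and near 0 in HEC59, and high in H661 and low in H522.

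The CDK4 promoter window (RefSeq, GRCh38.p14, chr12:57752261-57752560, minus strand) is shown because this kinase was the member with the highest median level, 182 FPKM. Capitals mark the E-box letters CACGTG, which read the same on both strands, occur 3 times here and are found in 7.23% of all windows.
CDK4: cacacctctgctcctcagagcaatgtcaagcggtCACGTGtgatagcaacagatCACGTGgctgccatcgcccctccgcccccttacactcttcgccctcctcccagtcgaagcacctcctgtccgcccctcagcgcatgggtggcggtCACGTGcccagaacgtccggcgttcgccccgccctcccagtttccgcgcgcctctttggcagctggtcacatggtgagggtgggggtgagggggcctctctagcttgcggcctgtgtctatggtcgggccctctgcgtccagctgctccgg
E-boxes of this form are bound by MYC and related factors, none of which was measured for binding here. Of the members, 8 had entries, with 13 windows in all, and CCND1 and CCND2 had none. The single RB1 window is that of an internal start, so the main RB1 promoter was not searched. Of the windows searched, those of RBL1 alone held E2F letters (TTTCCCGC, TTTGGCGC, TTTCGCGC or TTTGCCGC on either strand), with 2 matches, against 3.30% of all windows with any.

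**Figure D4:**
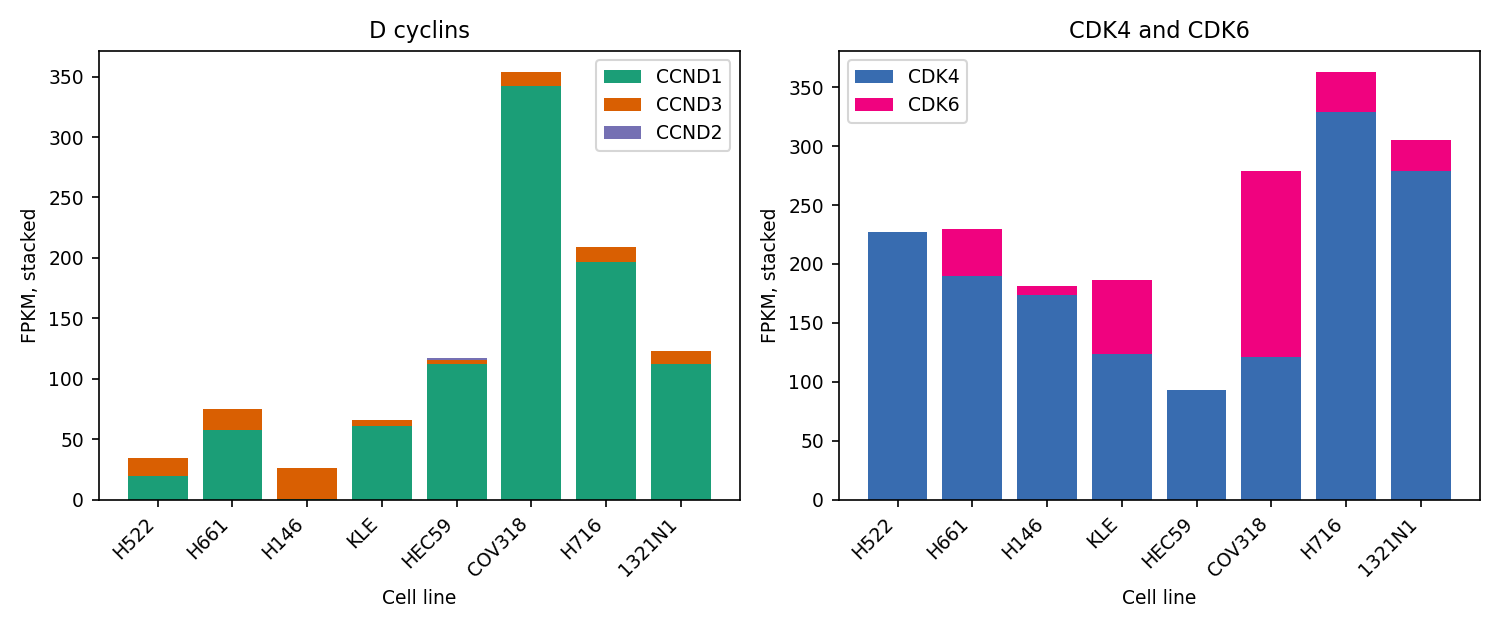
Stacked FPKM of the D cyclins (left) and of CDK4 and CDK6 (right) in the 8 lines, 1 library each. CCND3 fills the short bar of H146 (26.4 FPKM in all), CCND1 most of the 354 FPKM of COV318, and CDK6 is visible in 6 lines but not in H522 or HEC59.

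Lung lines against the other lines gave no member past the test. The test was limma on log2(FPKM + 1) with Benjamini-Hochberg adjustment over 15650 genes at 0.05, and 4 genes passed, 0.0256% of those tested (1 without COV318 to 16 without H146). CCND1 was nearest among the members. Its mean log2 level was 3.45 ± 2.97 (SD, n = 3) in lung lines and 7.13 ± 0.93 (SD, n = 5) in the remaining lines, a difference of -3.68 (SE 1.12, limma adjusted p = 0.613). All 3 lung lines, at 19.1, 57.8 and 0.0996 FPKM, lay below the other 5, of which KLE was lowest at 60.9, and the difference was -2.03 without H146. CCND3 went the other way, at 4.31 ± 0.41 (SD, n = 3) in lung lines and 3.10 ± 0.74 (SD, n = 5) in the remaining lines, a difference of 1.21 (SE 0.47, limma adjusted p = 0.805), again without overlap. These 2 of 9 members stand beside 673 genes without overlap, 4.3% of all. RB1 had a lower mean in lung lines (difference -1.63, SE 0.73, limma adjusted p = 0.821) but overlapped, since H661 was at 48.3 FPKM, and the difference was -0.63 without H146 and -2.58 without H661. For RBL1 the difference was -0.02, with a 95% interval of -1.15 to 1.11, and for CDK4 it was 0.23, with an interval of -0.80 to 1.26.

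Endometrial lines against the other 6 lines gave no member past the same test either, where 1 gene passed, 0.00639% (30 without COV318). That gene was AC002066.2, with a mean log2 level of 19.8 in endometrial lines and 0 in the others. For scale, ACTB had a mean of 11.6 over the 8 lines. So extreme a value may not reflect transcript level, which was not tested, and the call is not read as a tissue difference. CCND3 was at 3.19 FPKM in HEC59 and 4.96 in KLE, against 11.0 to 26.2 in the other lines. Its mean log2 level was 2.32 ± 0.36 (SD, n = 2) in endometrial lines and 3.97 ± 0.46 (SD, n = 6) in the others, a difference of -1.65 (SE 0.43, limma adjusted p = 0.620). RBL2 was at 16.0 in HEC59 and 14.4 in KLE, against at most 13.9 in the other lines, a difference of 0.52 (SE 0.38, limma adjusted p = 0.954). Without overlap were thus 2 of 9 members, beside 6.96% of all genes. CDK4 had a mean difference of -0.95 (SE 0.42, limma adjusted p = 0.954), with KLE at 123 just above the 121 of COV318. Unadjusted p-values under 0.05 numbered 930 in the lung and 755 in the endometrial comparison. The median over all genes was -0.02 and -0.11, and the endometrial median was -0.00413 after upper-quartile scaling.

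Around the members, the other inhibitors of the cell cycle differed from line to line without a tissue call. Of 5 listed INK4 and CIP/KIP genes past the filter, 1 had a higher mean in lung lines (median difference -0.33) and 3 in endometrial lines (median 0.03), and 0 were called. CDKN2D, which encodes the INK4 protein p19, was highest in H146 at 32.1 FPKM and lowest in H661 at 1.68. CDKN1A, the p21 gene, ran from 1.39 in COV318 to 41.6 in HEC59, and CDKN1C, the p57 gene, reached 1 FPKM in KLE (5.02), HEC59 (5.61) and COV318 (11.2) alone. Where CDKN2A was lowest, in 1321N1, CDKN2C supplied 80.5% of the summed FPKM of the 4 INK4 genes and CDKN2A 0.275%, against 46.5% to 82.5% for CDKN2A in the other 7 lines.

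E2F target genes of DNA replication were measured next to the members as a readout of the pathway. Their list score, averaged over 18 genes as log2(FPKM + 1), was 4.29 in KLE, 4.42 in HEC59, 4.86 in COV318, 5.12 in H146, 5.15 in H716, 5.31 in H661, 5.36 in H522 and 5.37 in 1321N1. RB1 did not order these scores (r = -0.09, rho = 0.10, n = 8), and H146 lay in the middle. In endometrial lines 17 of the 18 had a lower mean (median difference -0.81, against -0.11 over all genes), and 0 were called. Without overlap were 9 of the 18 (RRM2, MCM4, TYMS, MCM7, MCM3, MCM6, CDC6, MCM2 and CDT1), beside 6.96% of all genes. RRM2, a subunit of ribonucleotide reductase, was at 58.0 FPKM in KLE and 76.8 in HEC59, against 170 to 604 in the others (difference -2.06, SE 0.47, limma adjusted p = 0.543). In lung lines 15 had a higher mean (median 0.42), with MCM6, a helicase subunit, alone without overlap (47.9 to 62.8 FPKM in lung lines, 17.9 to 33.5 in the others), beside 4.3% of all genes, and again 0 were called. After upper-quartile or quantile scaling the counts were the same 17 lower and 15 higher means. PCNA, the DNA clamp, was highest in H146 at 147 FPKM, and POLA1, a DNA polymerase subunit, ran from 3.21 in HEC59 to 40.6 in H716.

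E2F and DP genes, the partners of the pocket proteins, had 6 of 10 higher means in lung lines (median 0.19) and 3 of 10 in endometrial lines (median -0.32), with 0 called in either. E2F1 was highest in COV318 at 15.5 FPKM, TFDP1 ran from 26.2 in HEC59 to 202 in H716, and TFDP2 was at 0.567 in H716 and at least 26.9 elsewhere. Cyclin E, cyclin A and CDK2 genes, which act after the D cyclins, had 5 of 8 higher means in lung lines (median 0.21) and 2 of 8 in endometrial lines (median -0.75), with 0 called. CCNE1 was lowest in 1321N1 and H716, at 2.496 and 2.745 FPKM, and at 7.25 to 25.1 in the others. CCNA1 was at 27.4 in H146, 9.53 in COV318 and 21.3 in KLE, with at most 1.24 elsewhere, while CCNA2 ran from 19.1 in HEC59 to 113 in H661.

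MuvB genes, whose complex joins RBL1 and RBL2 in resting cells and MYBL2 and FOXM1 in dividing cells, had 1 of 7 higher means in lung lines (median -0.23) and 3 of 7 in endometrial lines (median -0.01, and 0.10 after upper-quartile scaling), with 0 called. Their score was lowest in H146, at 3.78 against 3.91 to 4.59 in the other lines. It correlated with RB1, which was also lowest in H146, at r = 0.73 and rho = 0.74. The correlation was not taken without H146. Among them, LIN37 was highest in KLE at 13.98 FPKM, LIN52 was lowest in H146 at 3.52, and FOXM1 ran from 13.3 in KLE to 58.3 in 1321N1.

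Regulators of CDKN2A, among them Polycomb and ETS genes, had 5 of 10 higher means in lung lines (median 0.08) and 5 of 10 in endometrial lines (median -0.17), with 0 called. Their score correlated with CDKN2A at r = -0.70 but at rho = -0.21. ETS1, an activator of CDKN2A, ran from 0.122 FPKM in H716 to 27.9 in H661, ETS2 from 0.0819 in H661 to 24.5 in HEC59, and ID1, an inhibitor of ETS factors, from 10.2 in H146 to 186 in COV318. Genes of CDK4 and CDK6 assembly and D cyclin turnover had 2 of 8 higher means in lung lines (median -0.18) and 7 of 8 in endometrial lines (median 0.13), with 0 called. AMBRA1, an adaptor for the breakdown of D cyclins, was lowest in COV318, at 1.47 FPKM against 3.53 to 7.28 in the other lines. FBXO4 did not exceed 3.92, and CRYAB, a chaperone, was at 192 in 1321N1 and at most 25.8 elsewhere.

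**Figure D5:**
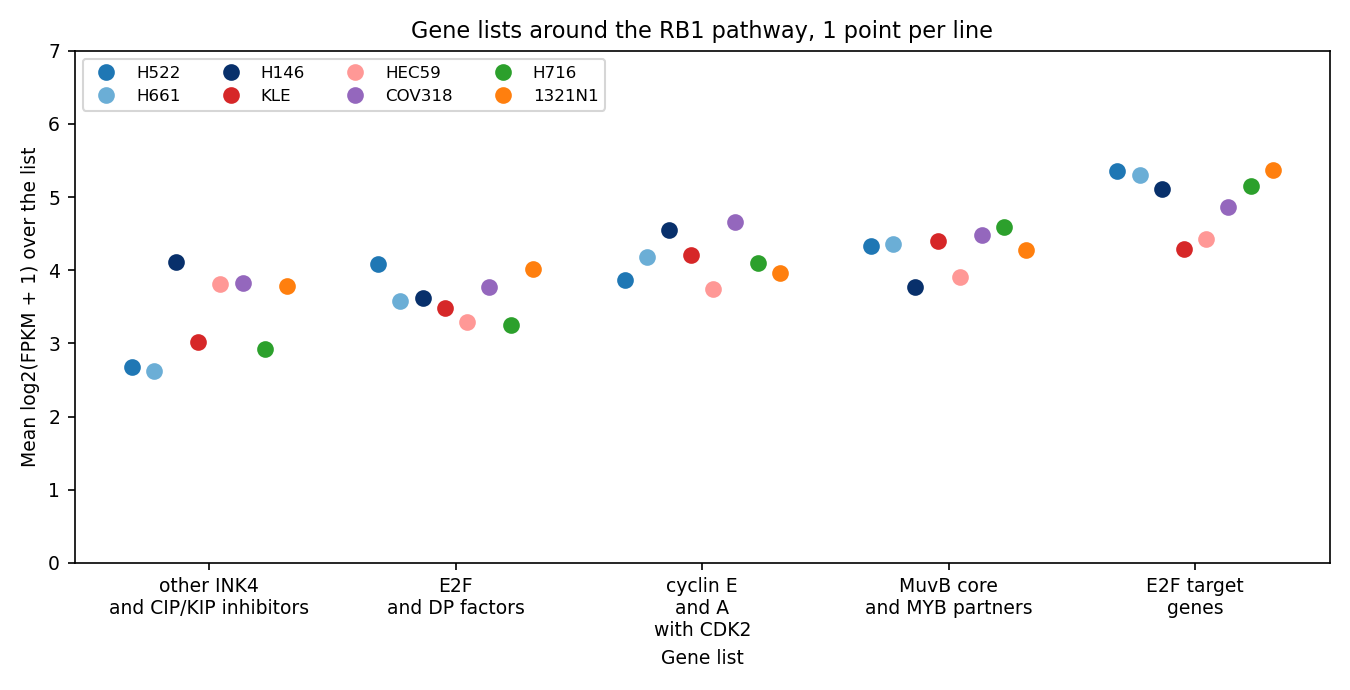
Mean log2(FPKM + 1) of 5 gene lists around the pathway, with 1 point per line. KLE and HEC59 are lowest for E2F target genes (4.29 and 4.42), and H146 is lowest for the MuvB list (3.78).

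Genes whose profile over the 8 lines was most like that of RB1, among 12541 protein-coding genes with the members left out, were EXT1 (r = 0.960), HSPA5 (0.955), PJA2 (0.951), SPDL1 (0.950) and MTCP1 (0.948), and the most opposite was MYOM2 (-0.970). EXT1, a heparan sulfate polymerase gene, was at 4.54 FPKM in H146 and 16.8 in H522 and at 30.3 to 48.6 in the others. For CDKN2A they were TMCO6 (0.958), CAAP1 (0.957), NSUN5 (0.949), RBM38 (0.939) and PLAA (0.923), with GPER1, a receptor gene, the most opposite (-0.958). CAAP1 and PLAA lie in the run of low genes on chromosome 9 described above. TMCO6 was at 0.359 FPKM in 1321N1 and 3.75 to 12.8 in the others, and NSUN5 at 0.0441 against 3.97 to 12.9. GPER1 was at 12.1 in 1321N1 and at most 2.05 elsewhere. Each likeness rests on 8 lines. All 5 genes most like RB1 had their lowest value in H146, and all 5 most like CDKN2A in 1321N1.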

How the data were processed

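RNA was sequenced in 8 cell lines with 1 library each, and the authors deposited a table of FPKM per Ensembl gene for each line, per the file headers. Tools named in the submitters' processing notes are CASAVA 1.4, TopHat2 2.0.8 and SAMtools 1.0, with the genome build GRCh37. The sources used here give neither the FPKM program nor its annotation or strand setting. Depth is unknown, and 82.2% of identifiers were found in GENCODE v29, used for gene types and overlaps only.

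The scale was log2(FPKM + 1), on which differences of low genes are understated. The filter kept 15650 genes that reached 1 FPKM in 2 lines or more, and limma 3.58.1 (R 4.3.3, trended eBayes) tested them with Benjamini-Hochberg adjustment at 0.05. P-values measure the spread between lines, which are different tumours. Low values came in steps worth 1 read. For each pair of lines, the share of genes near the commonest ratio was taken among genes above 0 and under 0.1 FPKM in both. Its mean was 20.3% over pairs within the read-step sets and 10.9% over pairs between them. The sets were the division into equal parts with the largest such difference, so the difference is no test of them.

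The members and lists were chosen with earlier results of these data known. Text names all members, the 3 genes of each other list with the largest SD, any gene called, all listed neighbours and the 5 genes most like RB1 and CDKN2A, and other names were chosen after their values were seen. Alternatives were other pseudocounts, no filter, other scalings, the read-step set as a term and each line left out. Tests against ibrutinib response were not made, and some genes of the lists are not reported here.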

Additional observations from a re-analysis of the deposited data

Results flagged for a closer look

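CDKN2A in 1321N1, at 0.146 FPKM, was flagged because this line stood far below the other 7, the nearest being HEC59 at 13.4. CCND2 in HEC59, at 1.18 FPKM, was flagged because it stood above the other 7 lines, of which H716 was highest at 0.327. The first rests on a gap of 0.546 of the range and the second on 0.639, against a critical value of 0.526. Chance flags about 1 in 20 groups by this measure, and in these data 8.12% of the genes past the filter were past the critical value. CCND2 did not pass that filter. Each line is 1 library, so no repeat of either value was available.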

How the results depend on the processing

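No member was called in either tissue comparison under any of the 14 alternatives, with limma adjusted p of 0.363 to 0.999 in the lung and 0.436 to 0.99996 in the endometrial comparison. Of 126 values per comparison, 118 and 116 kept their direction. Genes called in lung lines were 4, and 11 with a pseudocount of 0.1, 2 with a pseudocount of 5, 1 with no filter, 2 with the read-step set as a term, and 1 (without COV318) to 16 (without H146) when single lines were left out, with 13 without H716, 8 without H661 and 2 without HEC59 or 1321N1. In endometrial lines 1 gene was called, 4 with a pseudocount of 5, 20 with no filter and 1 to 30 (without COV318) when single lines were left out, with 5 without H146, 4 without KLE and 2 without HEC59. The lung difference of RBL1 was near 0 and turned to 0.0112 with a pseudocount of 5, 0.0566 with upper-quartile scaling, 0.0551 with quantile normalization and -0.59 to 0.502 when single lines were left out. The endometrial difference of CDKN2A turned to 0.185 with a pseudocount of 0.1. Leaving out single lines gave endometrial differences of -1.13 to 0.839 for CDKN2A, -0.335 to 0.48 for RB1, -0.83 to 0.0922 for RBL1, -1.29 to 0.464 for CDKN2B, -0.227 to 1.43 for CCND1 and -4.26 to 1.66 for CDK6. RB1 and CCND1 turned without H146, and RBL1, CDKN2B and CDK6 without HEC59. The correlation of RB1 with CDKN2A was 0.122 without the 2 lines farthest from the median RB1 level and -0.445 to -0.233 when single lines were left out. The cause of these changes was not tested. No paired analysis was possible because each line is a different tumour with 1 library, so the design holds no pairs. With 1 library per line and no counts, neither the error within a line nor counting error can be given.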
